A study of Mus musculus with 7 samples.

Results

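The BCL2 family and its partners at the mitochondrion were examined in whole hearts of 7 mdx mice. The genes were listed by name and role: the survival genes Bcl2, Bcl2l1 (Bcl-xL) and Mcl1, the pore-forming effectors Bax and Bak1, the BH3-only or BH3-like death genes Bcl2l11 (Bim), Bbc3 (Puma), Pmaip1 (Noxa) and Bnip3, and the initiator caspase Casp9. Of these 10 genes, 9 were measured, by 28 of the 45037 probe sets on the array. A probe set is a group of short probes that reports one transcript or a part of it. No probe set had Bax as its single gene in the array annotation used, so the RNA level of Bax was not analysed here.

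The 7 mice were 7 months of age, male and of the mdx strain, a model of Duchenne muscular dystrophy whose mutation abolishes dystrophin. In 4 mice, Myh6-cre, a Cre recombinase driven by the α-myosin heavy chain promoter and so active in cardiomyocytes, had deleted floxed IKKβ, the kinase that activates NF-κB (mdx HRTΔIKKβ). The other 3 mice were age-matched littermates with floxed IKKβ and without this Cre (mdx IKKβf/f). Only cardiomyocytes lose IKKβ in this model, while a whole heart also holds endothelial, fibroblast and immune cells, and there was no group with Cre alone.

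In a healthy cell, BCL2, BCL-xL and MCL1 hold the death proteins in check at the outer mitochondrial membrane. BH3-only proteins such as BIM, PUMA and NOXA bind these guardians and free or activate BAX and BAK, which open the membrane. Cytochrome c then leaves the mitochondrion and assembles with APAF1 and caspase-9 into the apoptosome. In cardiomyocytes, which divide little, MCL1 and BCL-xL are known as main guards of survival, and NF-κB is a textbook activator of several survival genes, Bcl2l1 among them.

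Values are log2 after the authors' normalization. Each difference is mdx HRTΔIKKβ minus mdx IKKβf/f and carries the standard error and p of a limma fit over all probe sets. An adjusted p is corrected over all 45037 probe sets, and a result passes at 0.05. Array medians lay between 6.73 and 6.75, and any pair of arrays correlated at 0.9875 or more over probe sets. The brightest of 5 probe sets for Ikbkb, the targeted gene, read 8.44, 8.86, 8.75 and 8.82 in mdx HRTΔIKKβ hearts, against 8.82, 9.03 and 8.86 in mdx IKKβf/f hearts (adjusted p = 0.801). The groups overlapped, and the position of these probes relative to the deleted exons was not analysed here. By qPCR on RNA of whole hearts, the paper reported lower Ikbkb expression in mdx HRTΔIKKβ mice. Cardiomyocyte markers were high on every array, and Ighm, an immunoglobulin heavy chain, ran from 10.68 to 13.55 in mdx HRTΔIKKβ hearts and from 8.26 to 10.04 in mdx IKKβf/f hearts. Among neutrophil markers, S100a8 stood at 13.27 in mdx HRTΔIKKβ heart 2 and 12.85 in mdx IKKβf/f heart 1, and between 6.93 and 8.22 in the other hearts.

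No member passed the test. Of the 28 member probe sets, 0 had an adjusted p of 0.05 or less, as was the case for 0% of all probe sets, the lowest value anywhere on the array being 0.336. Before adjustment, 5 of the 28 had a p under 0.05 (17.9%), against 6.07% of all probe sets. Of these, 4 had the higher mean in mdx HRTΔIKKβ hearts and came from Bcl2l1, Bak1 and Casp9, and 1 had the lower mean and came from Bcl2. Probe sets of one gene share a target, so these 5 stand for 4 genes. The groups did not overlap in 2 of the 28 probe sets (7.14%), near the 5.44% of all probe sets. A higher mean in mdx HRTΔIKKβ hearts was found for 13 of the 28 (46.4%), close to the 47.6% of all. The median size of the difference, without its sign, was 0.14 over the member probe sets and 0.07 over all probe sets. Single hearts weigh on the count of 5. It was 1 without mdx IKKβf/f heart 1 (3.57%, against 4.71% of all probe sets) and 2 without mdx IKKβf/f heart 3 (7.14%, against 5.97%). Without mdx HRTΔIKKβ heart 2 it was 8 (28.6%, against 4.48%).

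**Figure D1:**
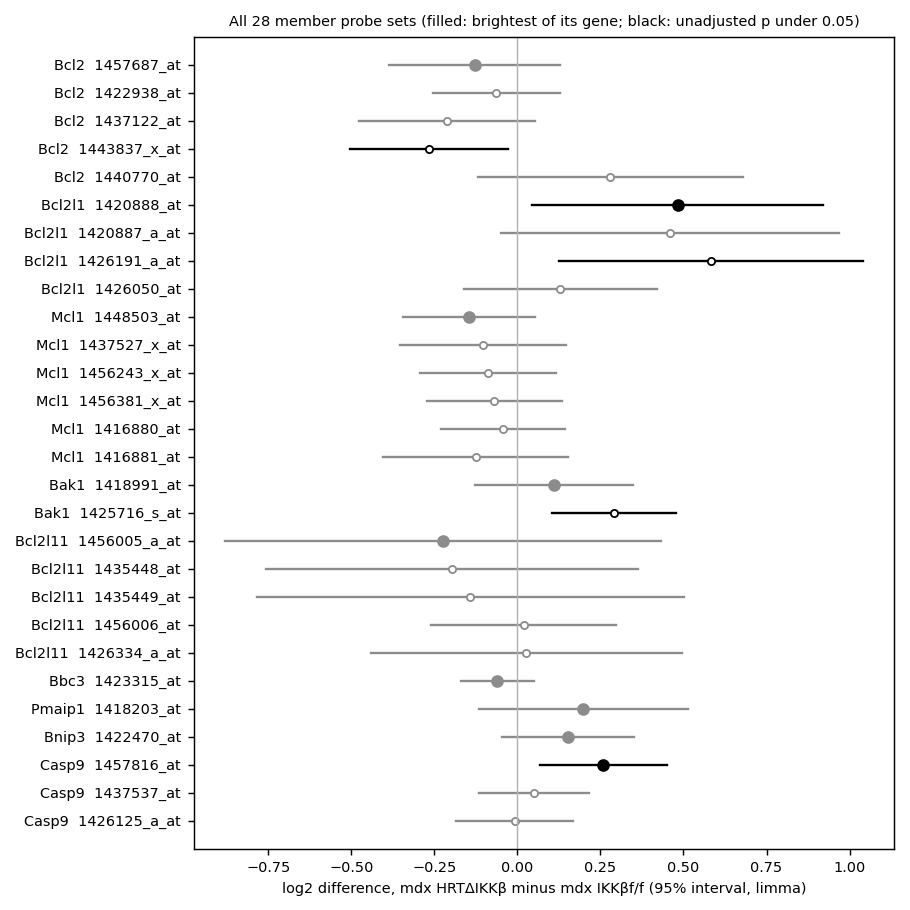
Difference between the groups (log2 scale, mdx HRTΔIKKβ minus mdx IKKβf/f) of each of the 28 member probe sets, grouped by gene; points are limma estimates from 4 and 3 hearts and bars are 95% confidence intervals. All 4 Bcl2l1 probe sets lie above 0, all 6 Mcl1 probe sets lie below it, and no probe set passed the adjusted p of 0.05.

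Bcl2l1 encodes BCL-xL, a guardian of the outer mitochondrial membrane. One of its promoters is shown because it holds a match to the κB motif, the sequence NF-κB binds. The 250 bases before a RefSeq transcription start (GRCm38.p6, chr2:152830718-152830967, minus strand) are given with the motif in capitals.

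Bcl2l1: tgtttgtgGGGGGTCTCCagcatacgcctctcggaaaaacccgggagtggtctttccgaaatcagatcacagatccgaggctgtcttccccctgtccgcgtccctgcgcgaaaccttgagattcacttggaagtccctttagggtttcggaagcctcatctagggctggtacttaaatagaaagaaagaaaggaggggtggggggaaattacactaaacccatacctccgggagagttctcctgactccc

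The κB motif, searched on both strands from 250 bases before to 50 bases after each start, was found in 8.46% of 32851 mouse promoter windows. Among the members it was present in 2 of 14 windows, 1 of Bcl2l1 and 1 of Bbc3. The match in Bcl2l1 lies 242 to 233 bases before the start, and the arrays do not show whether NF-κB binds it. The STAT motif TTCNNNGAA occurred in 8.3% of all windows and in 0 of the 14.

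The brightest Bcl2l1 probe set (1420888_at) read 9.32, 9.11, 9.97 and 9.55 in mdx HRTΔIKKβ hearts, against 8.90, 9.15 and 8.98 in mdx IKKβf/f hearts. Of these mdx HRTΔIKKβ hearts, 3 exceeded every mdx IKKβf/f heart, and mdx HRTΔIKKβ heart 2 lay within their range. The means were 9.49 ± 0.37 in mdx HRTΔIKKβ hearts (SD, n = 4) and 9.01 ± 0.13 in mdx IKKβf/f hearts (SD, n = 3), which differ by 0.48 ± 0.19 (SE) or 1.40-fold. The 95% interval ran from 0.04 to 0.92, and limma gave an unadjusted p of 0.0353 and an adjusted p of 0.796. A second probe set (1426191_a_at) separated the groups, with 7.05, 7.02, 7.71 and 7.56 in mdx HRTΔIKKβ hearts, against 6.71, 7.00 and 6.56 in mdx IKKβf/f hearts. Its difference was 0.58 ± 0.20 (unadjusted p = 0.0190, adjusted p = 0.796), with mdx HRTΔIKKβ heart 2 just above mdx IKKβf/f heart 2. The other probe sets had differences of 0.46 ± 0.22 (1420887_a_at) and 0.13 ± 0.12 (1426050_at, a dim probe set), so that 4 of 4 had the higher mean in mdx HRTΔIKKβ hearts. With single hearts left out, the difference of the brightest probe set lay between 0.32 and 0.61, and the unadjusted p exceeded 0.05 without mdx HRTΔIKKβ heart 4 (0.073), mdx IKKβf/f heart 1 (0.107) or mdx IKKβf/f heart 3 (0.089).

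Mcl1 encodes MCL1, a short-lived guardian without which adult cardiomyocytes are lost in mice. Its brightest probe set (1448503_at) read 12.20, 12.06, 12.30 and 12.40 in mdx HRTΔIKKβ hearts, against 12.43, 12.41 and 12.32 in mdx IKKβf/f hearts. One mdx HRTΔIKKβ heart, the fourth, lay within the range of the mdx IKKβf/f hearts and the other 3 lay below it. The difference was -0.15 ± 0.09 (adjusted p = 0.796), and all 6 Mcl1 probe sets had the lower mean in mdx HRTΔIKKβ hearts, by -0.04 to -0.15. The unadjusted limma p of the brightest probe set was 0.128 over all hearts. With single hearts left out its difference ran from -0.20 to -0.08. The unadjusted p was under 0.05 only without mdx HRTΔIKKβ heart 4 (0.043).

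Bcl2, the founding member of the family, was read by 5 probe sets, and 4 had the lower mean in mdx HRTΔIKKβ hearts. The brightest (1457687_at) read 7.70, 8.08, 8.08 and 8.08 in mdx HRTΔIKKβ hearts, against 8.08, 8.01 and 8.24 in mdx IKKβf/f hearts (difference -0.13 ± 0.11, adjusted p = 0.831). The value 8.08 was the same to the last deposited digit in 4 of these hearts. Exact repeats of this kind occurred in 7 of the 28 member probe sets (25%) and in 48.7% of all probe sets. The probe set with the smallest p (1443837_x_at) read 6.17, 6.43, 6.32 and 6.56 in mdx HRTΔIKKβ hearts, against 6.61, 6.53 and 6.77 in mdx IKKβf/f hearts, with an overlap of the groups by 1 heart on each side. Its difference was -0.27 ± 0.10 (unadjusted p = 0.0324, adjusted p = 0.796), and its suffix marks probes that may also match other transcripts. A further probe set (1440770_at) pointed the other way, at 0.28 ± 0.17.

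**Figure D2:**
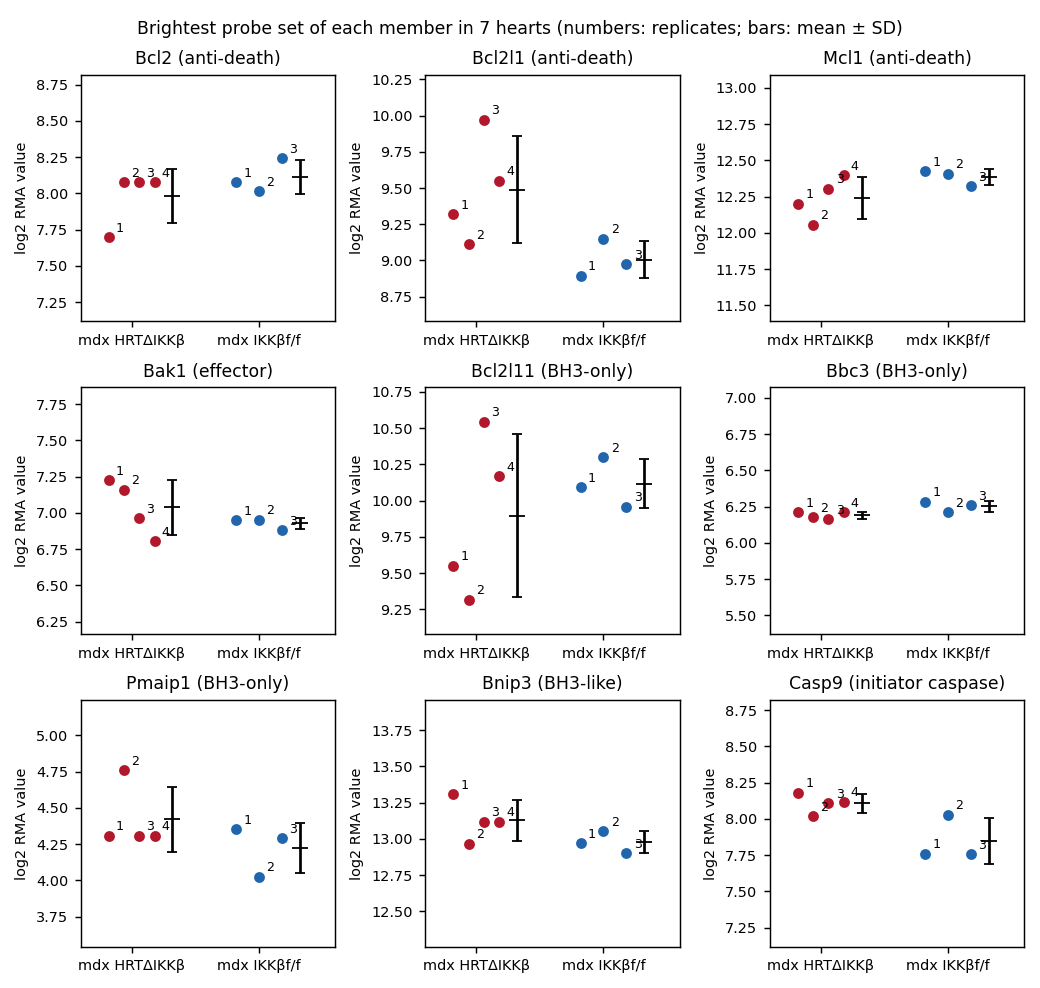
Deposited log2 value of the brightest probe set of each of the 9 measured genes in every heart, mdx HRTΔIKKβ (4 hearts) to the left of mdx IKKβf/f (3 hearts) in each panel; bars mark group means with the SD. The groups overlap for all 9 genes, and Bcl2l11 ranges over 1.23 in mdx HRTΔIKKβ hearts and 0.34 in mdx IKKβf/f hearts.

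Bak1 encodes BAK, which sits in the outer membrane and forms pores once activated. Its brighter probe set (1418991_at) read 7.22, 7.16, 6.96 and 6.81 in mdx HRTΔIKKβ hearts, against 6.95, 6.95 and 6.88 in mdx IKKβf/f hearts (difference 0.11 ± 0.10, adjusted p = 0.839). The dimmer one (1425716_s_at) read 5.76, 5.81, 5.90 and 5.95 in mdx HRTΔIKKβ hearts, against 5.42, 5.57 and 5.70 in mdx IKKβf/f hearts. Every mdx HRTΔIKKβ heart lay above every mdx IKKβf/f heart in this probe set, and the difference was 0.29 ± 0.08 (1.22-fold, unadjusted p = 0.00723, adjusted p = 0.796). This was the smallest p among the members, and with single hearts left out the difference lay between 0.22 and 0.36 with an unadjusted p under 0.05. The suffix of this probe set marks probes that may match several transcripts, and it was among those removed by that filter and by the filter on dim probe sets. The probe sets do not rank the hearts alike: mdx HRTΔIKKβ heart 4 was the lowest of its group in the brighter and the highest in the dimmer.

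Bcl2l11 encodes BIM, a BH3-only protein that can engage every guardian of the family and is raised by withdrawal of growth factors. Its brightest probe set (1456005_a_at) read 9.55, 9.32, 10.55 and 10.17 in mdx HRTΔIKKβ hearts, against 10.09, 10.30 and 9.96 in mdx IKKβf/f hearts. The mdx HRTΔIKKβ hearts lay on both sides of the mdx IKKβf/f range, with hearts 1 and 2 below it and heart 3 above it. The difference of -0.22 ± 0.28 (adjusted p = 0.876) was smaller than its error. Of the 5 probe sets, 2 had the higher and 3 the lower mean in mdx HRTΔIKKβ hearts, and with single hearts left out the brightest one ran from -0.44 to -0.03.

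Bbc3 encodes PUMA and Pmaip1 encodes NOXA, both BH3-only proteins known as targets of p53. One Bbc3 promoter held the other κB matches of the members and is shown around them (GRCm38.p6, chr7:16309421-16309481, plus strand), with the stretch covered by 3 overlapping matches, on both strands, in capitals. The capitals lie 137 to 127 bases before the start.

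Bbc3: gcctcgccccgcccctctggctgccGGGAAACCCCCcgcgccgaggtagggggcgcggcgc

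The single Bbc3 probe set read 6.21, 6.18, 6.16 and 6.21 in mdx HRTΔIKKβ hearts, against 6.28, 6.21 and 6.26 in mdx IKKβf/f hearts (difference -0.06 ± 0.05, adjusted p = 0.82). All 7 hearts lay between 6.16 and 6.28. Pmaip1 was dim, at 4.31, 4.76, 4.31 and 4.31 in mdx HRTΔIKKβ hearts, against 4.35, 4.02 and 4.29 in mdx IKKβf/f hearts (0.20 ± 0.13, adjusted p = 0.811). The mdx HRTΔIKKβ hearts other than heart 2 shared one exact value.

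Bnip3 encodes a BH3-like protein of the outer mitochondrial membrane that promotes mitophagy, and hypoxia is a textbook inducer of it through HIF1. Its promoter is shown because it holds 5 matches to the hypoxia core ACGTG or GCGTG, counted on both strands, with matched bases in capitals (GRCm38.p6, chr7:138909512-138909648, minus strand).

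Bnip3: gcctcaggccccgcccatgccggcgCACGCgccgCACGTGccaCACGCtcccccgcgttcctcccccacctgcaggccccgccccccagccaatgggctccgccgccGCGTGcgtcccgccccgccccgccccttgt

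The matches lie 117 to 95 and 35 to 31 bases before the start. This short core is common: 43.8% of all windows held it, and it was found in 9 of the 14 member windows, of 6 genes. Bnip3 RNA (1422470_at) read 13.31, 12.97, 13.12 and 13.12 in mdx HRTΔIKKβ hearts, against 12.97, 13.06 and 12.90 in mdx IKKβf/f hearts. The mdx HRTΔIKKβ hearts lay above all mdx IKKβf/f hearts except heart 2, which lay among them. The means were 13.13 ± 0.14 in mdx HRTΔIKKβ hearts (SD, n = 4) and 12.98 ± 0.08 in mdx IKKβf/f hearts (SD, n = 3), which differ by 0.15 ± 0.09 (adjusted p = 0.796).

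Casp9 encodes caspase-9, the protease that the apoptosome activates. Its brightest probe set (1457816_at) read 8.18, 8.02, 8.11 and 8.12 in mdx HRTΔIKKβ hearts, against 7.76, 8.03 and 7.76 in mdx IKKβf/f hearts. Only mdx IKKβf/f heart 2 reached the range of the mdx HRTΔIKKβ hearts. The difference was 0.26 ± 0.08 (1.20-fold, unadjusted p = 0.0147, adjusted p = 0.796), and the unadjusted p exceeded 0.05 without mdx IKKβf/f heart 1 (0.058) or heart 3 (0.060). The other Casp9 probe sets had differences of 0.05 ± 0.07 and -0.01 ± 0.08, so the gene's probe sets disagreed. Casp9 was the member gene with the smallest p by its brightest probe set, and the genes whose levels ran most like it over the 7 hearts, among 13422 genes, were Srrm3 (Pearson r = 0.970), Zfp689 (0.963), Pla2g2f (0.945), Tlr6 (0.932) and Rslcan18 (0.930). With the group means removed these values were 0.918, 0.909, 0.917, 0.843 and 0.914. They describe 7 arrays that share one normalization, and the highest of so many values are high by selection.

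Survival and death members were then set against each other within each heart, as the mean of 6 death genes minus the mean of 3 survival genes, after each gene was centred on its 7-heart mean. The score was 0.17, 0.09, -0.14 and -0.11 in mdx HRTΔIKKβ hearts, against 0.04, 0.01 and -0.06 in mdx IKKβf/f hearts. The mdx HRTΔIKKβ hearts lay on both sides of the mdx IKKβf/f hearts, 2 above and 2 below all of them. The means were 0.001 ± 0.151 in mdx HRTΔIKKβ hearts (SD, n = 4) and -0.002 ± 0.055 in mdx IKKβf/f hearts (SD, n = 3), so the difference of 0.003 was far below the pooled SD of 0.12. The death genes alone differed by 0.07 and the survival genes alone by 0.07. The sign of so small a difference was not stable: it ran from -0.05 to 0.05 with single hearts left out. It was 0.21 without Bcl2l1, -0.10 without Mcl1, -0.10 without Bcl2 and -0.06 without Bnip3 and Casp9.

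**Figure D3:**
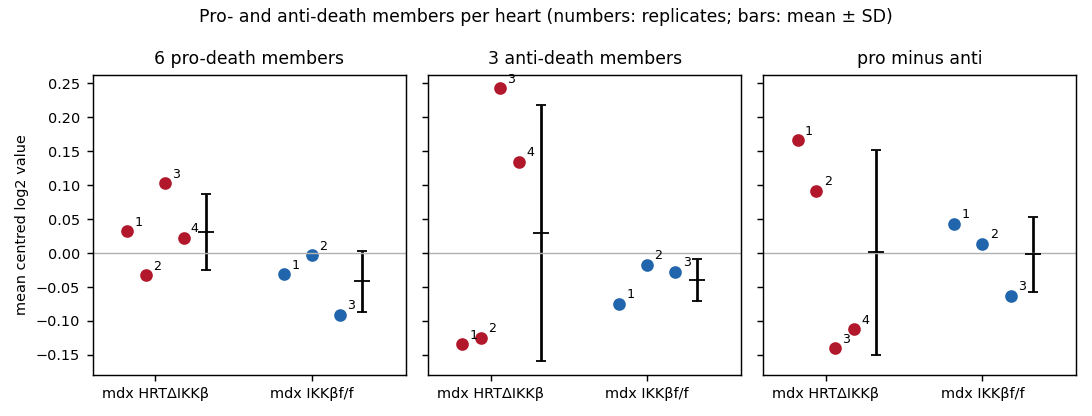
Mean centred log2 value per heart of the 6 death genes, of the 3 survival genes and of death minus survival genes, in 3 panels from left to right; points are hearts numbered by replicate, and bars are the mean ± SD of 4 mdx HRTΔIKKβ and 3 mdx IKKβf/f hearts. For the survival genes, mdx HRTΔIKKβ hearts span -0.13 to 0.24 and mdx IKKβf/f hearts -0.07 to -0.02.

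The spread among mdx HRTΔIKKβ hearts was a feature of several members. The SD was larger in mdx HRTΔIKKβ hearts than in mdx IKKβf/f hearts for 21 of the 28 member probe sets (75%), against 59.2% of all probe sets. Probe sets of one gene are not separate readings, and by the brightest probe set of each gene it was 7 of 9 genes (77.8%). The next pattern concerns 3 genes chosen for it after their values were seen, so it is a description. Within the mdx HRTΔIKKβ group, hearts 3 and 4 lay above hearts 1 and 2 in all 4 Bcl2l1 and all 5 Bcl2l11 probe sets, and in 4 of 6 Mcl1 probe sets, while 19.2% of all probe sets had this split and 17.4% the opposite one. The full order 3, 4, 1, 2 was found in 3 of 4 Bcl2l1, 4 of 5 Bcl2l11 and 0 of 6 Mcl1 probe sets, and in 4.02% of all probe sets. Of the 13 probe sets of the other members, 1 had the split and 2 the opposite one, and the Bak1 probe sets went opposite ways (1425716_s_at with it, 1418991_at against it). Heart 2 was the lowest of its group in 14 of the 15 probe sets of these 3 genes, while it was the lowest in 31.3% of all probe sets. It was the lowest in only 2 of the 13 probe sets of the other members, and the highest in 3 of 5 Bcl2 probe sets. Between the brightest probe sets of Bcl2l1 and Bcl2l11, Pearson's r was 0.475 over the 7 hearts and 0.961 with the group means removed, and over the 20 pairs of their probe sets the second value ran from 0.518 to 0.986. The value 0.961 was the highest of the 36 pairs of member genes, which ran down to -0.879 (Bcl2 and Bnip3), so it is high by selection. Heart 2 was also the mdx HRTΔIKKβ heart with the highest scores for neutrophil (3.50), adipocyte (1.66), airway epithelium (2.95) and B, T and plasma cell markers (1.15), and the part of these cells in the order was not tested.

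**Figure D4:**
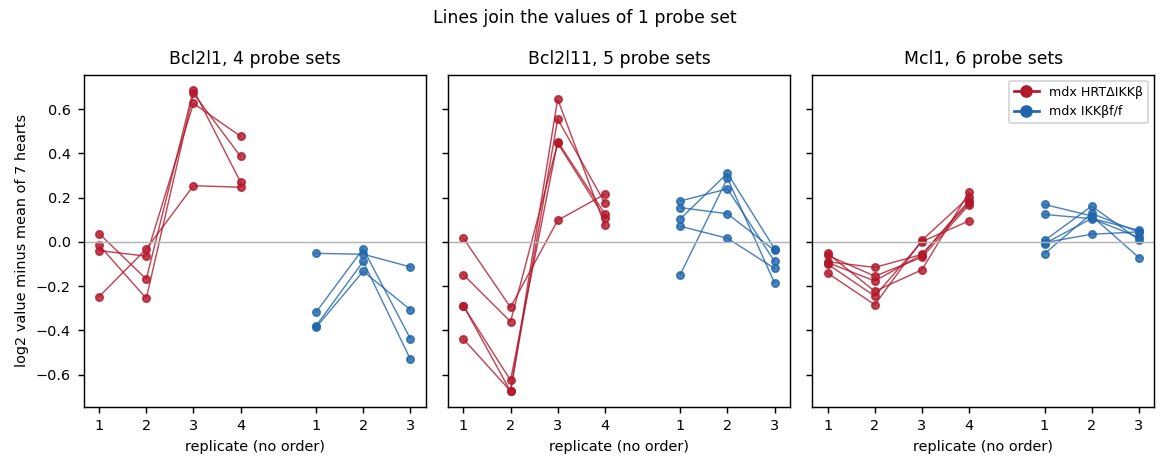
Centred log2 value of every probe set of Bcl2l1, Bcl2l11 and Mcl1 across the hearts, mdx HRTΔIKKβ hearts 1 to 4 to the left of mdx IKKβf/f hearts 1 to 3; each line is 1 probe set. Among mdx HRTΔIKKβ hearts, heart 2 is the lowest in 14 of the 15 lines.

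Other genes of the pathway gave the setting of these members, and none passed the test. Of the other survival genes, Bcl2l10 (0.06) and Bcl2l2, which encodes BCL-W (-0.02), were measured. Of 12 other death or atypical family genes, 9 had the higher and 3 the lower mean in mdx HRTΔIKKβ hearts, 0 of them with an unadjusted p under 0.05, and the median was 0.03. The smallest p-values among them belonged to the BH3-only gene Hrk (0.14 ± 0.07), to Bid (0.35 ± 0.20), which links death receptors to mitochondria, and to Bnip1 (0.09 ± 0.06). For comparison, the median over all genes was -0.01. Of 11 genes of the apoptosome, caspases and nucleases, 6 were higher and 5 lower in the mean, led by Dffa (0.20 ± 0.12), an inhibitor of the apoptotic nuclease, Apaf1 (0.13 ± 0.09) and Htra2 (-0.06 ± 0.06). Of 11 inhibitors of apoptosis, 9 were higher and 2 lower in the mean, and only Hax1 (0.08 ± 0.05) had groups that did not overlap. Birc3, encoding cIAP2, and Cflar, encoding the caspase-8 inhibitor cFLIP, differed by 0.12 ± 0.08 and 0.16 ± 0.10. Both are textbook NF-κB targets, each had an adjusted p of 0.804, and the part of NF-κB in these differences was not tested. Of 17 genes of the mitochondrial membrane, pore and dynamics, 8 were higher and 9 lower in the mean, led by Ppif (-0.17 ± 0.08), which encodes cyclophilin D, the regulator of the permeability pore, Pink1 (-0.19 ± 0.10) and Opa1 (-0.08 ± 0.06).

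Death receptors at the cell surface can also engage the mitochondrial pathway. Of 14 genes for these receptors, their ligands and adaptors, 10 had the higher and 4 the lower mean in mdx HRTΔIKKβ hearts. The ligand gene Tnfsf10, which encodes TRAIL, read 8.35, 8.42, 7.88 and 8.39 in mdx HRTΔIKKβ hearts, against 8.83, 8.48 and 8.69 in mdx IKKβf/f hearts. Each mdx HRTΔIKKβ heart lay below each mdx IKKβf/f heart, and the difference was -0.41 ± 0.15 (unadjusted p = 0.0261, adjusted p = 0.796). Tnfrsf1a, the receptor for TNF, differed by 0.25 ± 0.11 and its adaptor Tradd by 0.08 ± 0.05.

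Among 16 regulators of the members' RNA or protein, 8 had the higher and 8 the lower mean. Stat3, a transcription factor known to raise Bcl2l1 and Mcl1, read 12.06, 11.93, 11.47 and 11.55 in mdx HRTΔIKKβ hearts, against 11.07, 11.21 and 11.28 in mdx IKKβf/f hearts. The groups did not overlap and the difference was 0.57 ± 0.15 (1.48-fold, unadjusted p = 0.00585, adjusted p = 0.79). Within the mdx HRTΔIKKβ group, hearts 1 and 2 were the highest for Stat3 and the lowest for the brightest Bcl2l1 probe set. The part of Stat3 in the level of Bcl2l1 was not tested. The stress factor Atf4 differed by 0.16 ± 0.11 and Epas1, which encodes HIF2α, by -0.08 ± 0.07. Of 12 hypoxia genes examined alongside Bnip3, 10 were higher and 2 lower in the mean, with a median of 0.11. At an unadjusted p of 0.05 there were 2 (16.7%, against 6.2% of all genes), the glucose transporter gene Slc2a1 (0.22 ± 0.08) and the collagen hydroxylase gene P4ha1 (0.46 ± 0.16), followed by Ndrg1 (0.20 ± 0.09). The 2 with the lower mean were Pdk1 (-0.10 ± 0.08) and Vegfa (-0.07 ± 0.13). The part of hypoxia in the level of Bnip3 was not tested.

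The members were read in whole hearts, where a change of cell mixture and a change of RNA per cell cannot be told apart. Markers of other cells also differed in mean between the groups. Of 14 macrophage and monocyte markers, 13 had the higher mean in mdx HRTΔIKKβ hearts and 6 had an unadjusted p under 0.05 (5 higher, 1 lower), and the score of the list ran from -0.11 to 0.26 in mdx HRTΔIKKβ hearts and from -0.33 to -0.09 in mdx IKKβf/f hearts. All 10 B, T and plasma cell markers had the higher mean, 2 of them with an unadjusted p under 0.05, with scores from 0.07 to 1.15 in mdx HRTΔIKKβ hearts and from -0.94 to -0.24 in mdx IKKβf/f hearts. Ighm (3.25 ± 0.71) and Jchain (3.02 ± 1.01) had the largest differences of this list. Single hearts weighed on it: every T cell marker was highest in mdx HRTΔIKKβ heart 1, and every B or plasma cell marker in mdx HRTΔIKKβ heart 2. All 10 skeletal muscle markers had the lower mean, and their score ran from -1.38 to 0.28 in mdx HRTΔIKKβ hearts, against 3.81, -1.11 and 0.83 in mdx IKKβf/f hearts. All 6 atrial markers had the higher mean (median 0.96), with scores from -0.24 to 1.01 in mdx HRTΔIKKβ hearts, against 0.36, -1.69 and -0.32 in mdx IKKβf/f hearts. The 5 adipocyte markers (median 0.81) and the 6 airway and lung epithelium markers (median 1.85) also all had the higher mean, and single hearts weighed on both. Adipocyte scores were 0.20, 1.66, -0.02 and -0.24 in mdx HRTΔIKKβ hearts, against 0.19, -1.01 and -0.78 in mdx IKKβf/f hearts. Airway scores were -0.28, 2.95, -1.16 and 1.43, against -1.20, -0.68 and -1.07. With single hearts left out the medians ran from 0.08 to 1.31 (adipocyte) and from 0.86 to 2.48 (airway). Endothelial markers were split, 4 higher and 4 lower, with 2 at an unadjusted p under 0.05, Pecam1 (0.30 ± 0.07, groups not overlapping) and Vwf (0.65 ± 0.21). For these counts the share over all genes, by their brightest probe sets, was 6.2%. The cardiomyocyte markers had a median difference of -0.01 and included Myl2 and Actc1 at the top of the array's range. The part of these cells in the differences of Bcl2l1, Bak1, Casp9 and Stat3 was not tested. A further fit left out mdx HRTΔIKKβ heart 2 and mdx IKKβf/f heart 1, the hearts high in neutrophil markers. This choice was made after the data were seen. In that fit 3 of the 28 probe sets had an unadjusted p under 0.05 (10.7%, against 3.87% of all probe sets). In their brightest probe sets, Bcl2l1 differed by 0.55 ± 0.20, Casp9 by 0.24 ± 0.10 and Bak1 by 0.08 ± 0.13. Over all hearts these differences were 0.48 ± 0.19, 0.26 ± 0.08 and 0.11 ± 0.10. The dimmer Bak1 probe set differed by 0.24 ± 0.08, against 0.29 ± 0.08 over all hearts. The difference was thus larger for Bcl2l1 and smaller for Casp9 and Bak1.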

How the data were processed

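RNA from each of 7 whole hearts was hybridized to its own Affymetrix GeneChip for the mouse genome. The authors deposited log2 values computed by RMA (robust multi-array average), which subtracts background, equalizes the arrays' distributions by quantiles and summarizes each probe set, in Partek, with Affymetrix Expression Console run independently. Their versions, and which program made the table, are not given in the sources used here. These steps shrink the folds of dim probe sets and take out any shift common to all genes. The number of arrays limits the precision.

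A two-sided moderated test was fitted to all 45037 probe sets, none filtered, by lmFit and eBayes of limma 3.58.1 (R 4.3.3). P-values were adjusted by the Benjamini-Hochberg method. The procedure was tested on simulated data. Replicates are separate mice per the study. Genes were named through the platform annotation, which can be old: 34945 probe sets had 1 gene, 932 several and 9160 none, and only those with 1 were named. A gene's brightest probe set stood for it in lists. The members and lists were chosen with earlier results of these data known, so nothing in them is independent support.

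All members were named with all their probe sets. From each pathway list up to 3 genes with the smallest p were named, from marker lists up to 2 with the highest mean, and for the member gene with the smallest p the 5 genes most correlated with it, among those with a mean of at least 6. Ikbkb, the death receptor gene Fas, the hypoxia genes Ddit4, Pdk1 and Vegfa and the endothelial genes Pecam1 and Vwf fall outside this rule. All but Ikbkb were named after their values were seen. Promoters came from RefSeq (GRCm38.p6), where 14 windows of 9 member genes matched. Pmaip1 is not shown. Alternatives included other probe set choices, filters, array weights, the methods' t-test, a replicate block and each heart left out.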

Additional observations from a re-analysis of the deposited data

Results flagged for a closer look

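In 2 of the 28 member probe sets, 1 of the 4 mdx HRTΔIKKβ hearts stood far from the others by Dixon's gap criterion, which chance meets in about 1 in 20 groups. The brightest Bcl2 probe set (1457687_at) was at 7.698 in mdx HRTΔIKKβ heart 1, while the other 3 hearts shared the value 8.076. The Pmaip1 probe set (1418203_at) was at 4.758 in mdx HRTΔIKKβ heart 2, while the other 3 shared 4.308. In both cases the tied values make the gap equal to the whole range of the group.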

How the results depend on the processing

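No member probe set passed the adjusted p of 0.05 under any alternative run. The count of member probe sets at an unadjusted p of 0.05, 5 of 28 as reported (17.9%, against 6.07% of all probe sets), was 2 of the 18 left once probe sets that may match several transcripts were removed (11.1%, against 5.68%), 3 by the methods' t-test (10.7%, against 4.63%), 2 with the replicate block (7.14%, against 4.87%) and 3 with mdx HRTΔIKKβ heart 2 and mdx IKKβf/f heart 1 left out (10.7%, against 3.87%), an alternative chosen after seeing the data. With single hearts left out it ran from 1 (without mdx IKKβf/f heart 1, 3.57% against 4.71%) to 8 (without mdx HRTΔIKKβ heart 2, 28.6% against 4.48%). Over all probe sets, 0 passed, and 0 to 1 did so with single hearts left out; the 1 was an immunoglobulin probe set, Igk, without mdx HRTΔIKKβ heart 1 (adjusted p = 0.0463). Over all probe sets, 2735 had an unadjusted p of 0.05, 2019 to 3362 with single hearts left out and 1743 with both hearts left out. Bcl2 reversed to 0.28 when its most variable probe set stood for it. The balance of 0.003 became 0.21 without Bcl2l1 and ran from -0.05 to 0.05 with single hearts left out. Deviations of same-numbered hearts from their group means correlated at -0.08, -0.38 and -0.04. Differently numbered hearts were not compared, so these values cannot decide whether the numbers pair the hearts. The replicate block joins hearts by these numbers, and mdx HRTΔIKKβ heart 4 has no partner. The differences with the block were therefore the same as without that heart, such as 0.46 for Bcl2l1. Of the other alternatives for single genes, 169 kept direction and side of the threshold. The smallest adjusted p of a member was 0.796 in the main limma fit, so the side of the threshold had little room to change. With array weights the adjusted limma p of Casp9 was 0.639. Sizes did move, as for Bcl2l11, from -0.44 to -0.03 with single hearts left out. From limma to the methods' t-test, the unadjusted p of Bbc3 fell from 0.236 to 0.045 and that of Bcl2l1 rose from 0.035 to 0.086. The causes were not tested.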

Other observations

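Within the mdx HRTΔIKKβ group, the split of hearts 3 and 4 from hearts 1 and 2 seen for Bcl2l1 and Bcl2l11 appeared with larger size in a pair of genes chosen after their values were seen. Ddit4, which encodes the stress-induced mTORC1 inhibitor REDD1, read 8.67, 8.84, 11.50 and 11.23 in mdx HRTΔIKKβ hearts, against 8.25, 10.37 and 9.06 in mdx IKKβf/f hearts (0.83 ± 0.84, adjusted p = 0.851). Its range within the mdx HRTΔIKKβ group was 2.83. Fas, a death receptor gene, read 8.53, 8.27, 9.47 and 9.36 in mdx HRTΔIKKβ hearts, against 8.56, 8.63 and 8.55 in mdx IKKβf/f hearts (0.33 ± 0.29, adjusted p = 0.834). For Ddit4, mdx IKKβf/f hearts 2 and 3 lay between these pairs of mdx HRTΔIKKβ hearts and heart 1 lay below both. The labels give no difference between these hearts.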
